A study of Arabidopsis thaliana with 36 samples.

Results

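Cyclins, their kinase partners and the proteins that carry out mitosis were followed through heat stress (HS) in Arabidopsis seedlings. The 37 genes described here are 25 cyclins (4 of the B1 class, 4 of the B2 class, 2 of A1, 4 of A2, 2 of A3 and 9 of the D class), CDKA;1, 4 B-type kinases (CDKB), the CDK inhibitors KRP1, KRP2 and SIM, the inhibitory kinase WEE1 and the mitosis genes KNOLLE, AUR1 and AUR2. They were taken by name and locus from the 36632 genes of the count tables, and all 37 had enough reads to be tested. RNA was sequenced from whole seedlings of Col-0 and of the T-DNA insertion lines hsfa2 (hsfa2-1, in the gene of the heat shock factor HSFA2) and cdk8 (in the gene of the kinase of the Mediator kinase module), each line 1 allele in the Col-0 background. Seedlings received no HS (NHS), HS on day 5 only (primed, P), HS on day 7 only (triggered, T) or both (P + T). Each HS was 1 h at 37 °C, all plants were collected at the same time on day 7, and each of the 12 groups had 3 replicate libraries.

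A cyclin binds a cyclin-dependent kinase (CDK) and decides when in the cell cycle, and on which proteins, the kinase acts. In plants D-type cyclins respond to sugar and hormones and take cells out of G1, A3 cyclins act around the start of DNA replication, A1 and A2 cyclins act from S phase towards mitosis, and B cyclins act at the entry into and during mitosis. CDKA;1 works throughout the cycle, whereas the plant-specific CDKB kinases are made mainly in G2 and mitosis. KRP and SIM proteins inhibit these complexes, WEE1 restrains them when DNA is damaged, KNOLLE is the syntaxin of the growing cell plate, and Aurora kinases act on the mitotic spindle and chromosomes. Seedlings divide mainly in the root and shoot meristems, in young leaves and in the stomatal lineage, so these transcripts come mainly from a small part of the cells collected.

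The libraries were deep and even, with 29409330 to 31224343 read pairs assigned to genes. In the cdk8 line CDK8 stood at 3.44 to 7.15 CPM (read pairs of the gene scaled to library size) over the 12 libraries, against 14.5 to 45.9 CPM in Col-0, so reads were still present in this insertion line. HSFA2 reached 2571 to 4983 CPM in Col-0 after T or P + T, with 630 to 1179 CPM for hsfa2 and 900 to 1491 for cdk8. Many reads of HSFA2 thus also remained in its own insertion line. Within T, and within P + T, every hsfa2 library was below every cdk8 library. Library composition was allowed for by the TMM method (trimmed mean of M-values), which sets most genes to no change. Its factors were 0.694 to 0.777 in the T and P + T libraries of Col-0 and 0.818 to 0.930 in those of cdk8. They were 1.24 to 1.35 in the NHS and P libraries of these lines. Changes are given below as log2 fold changes (log2FC) after TMM with their standard errors, and values scaled by library size alone stand beside those for the day 7 HS whose direction or call depends on the scaling. Whether libraries overlap is judged on CPM, by library size. Groups that overlap there can be apart after TMM, and the reverse. A gene is said to be called in a treatment contrast at an adjusted p under 0.05 and an absolute log2FC over 1, and to pass, rise or fall at an adjusted p under 0.05 whatever its fold. Scaled by library size, the median over the 20847 genes tested went from -0.05 to -0.82 in Col-0 T/NHS and from -0.06 to -0.81 in P + T/P. Adjusted p-values are those of edgeR's quasi-likelihood test over all 20847 genes.

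Without HS the genes spanned a wide range of levels per length (RPKM, reads per kilobase of exon scaled to library size). CDKA;1 (AT3G48750) was the highest in Col-0 NHS, at 35.5 ± 4.10 RPKM (SD, n = 3), followed by the mitotic kinase CDKB2;1 at 30.4 ± 3.58 and the D cyclins CYCD3;2 at 28.6 ± 1.80 and CYCD3;1 at 24.8 ± 1.44. Mean ± SD overlapped between CDKA;1 and CDKB2;1 and between CDKB2;1 and CYCD3;2, but not between CYCD3;2 and CYCD3;1. KNOLLE (20.6 ± 4.76), CYCA2;3 (17.6 ± 2.17), AUR1 (17.3 ± 3.78) and CYCB1;2 (15.9 ± 3.59) came next and could not be ordered within their SDs. At the low end stood CYCD4;1 (0.872 ± 0.235 RPKM), CYCD4;2 (0.569 ± 0.156) and CYCA2;1 (0.462 ± 0.121), and the last 2 rested on only 18 to 34 read pairs in each NHS library. Of the 37 genes 13 overlap another annotated gene, 12 of them on the opposite strand, among them KNOLLE, AUR1, AUR2, SIM and all 4 CDKB genes. CYCD3;1 overlaps AT4G34150 on its own strand. Whether the counting used the strand is not given in the sources used here, so reads of these 13 genes may include those of their neighbours.

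**Figure D1:**
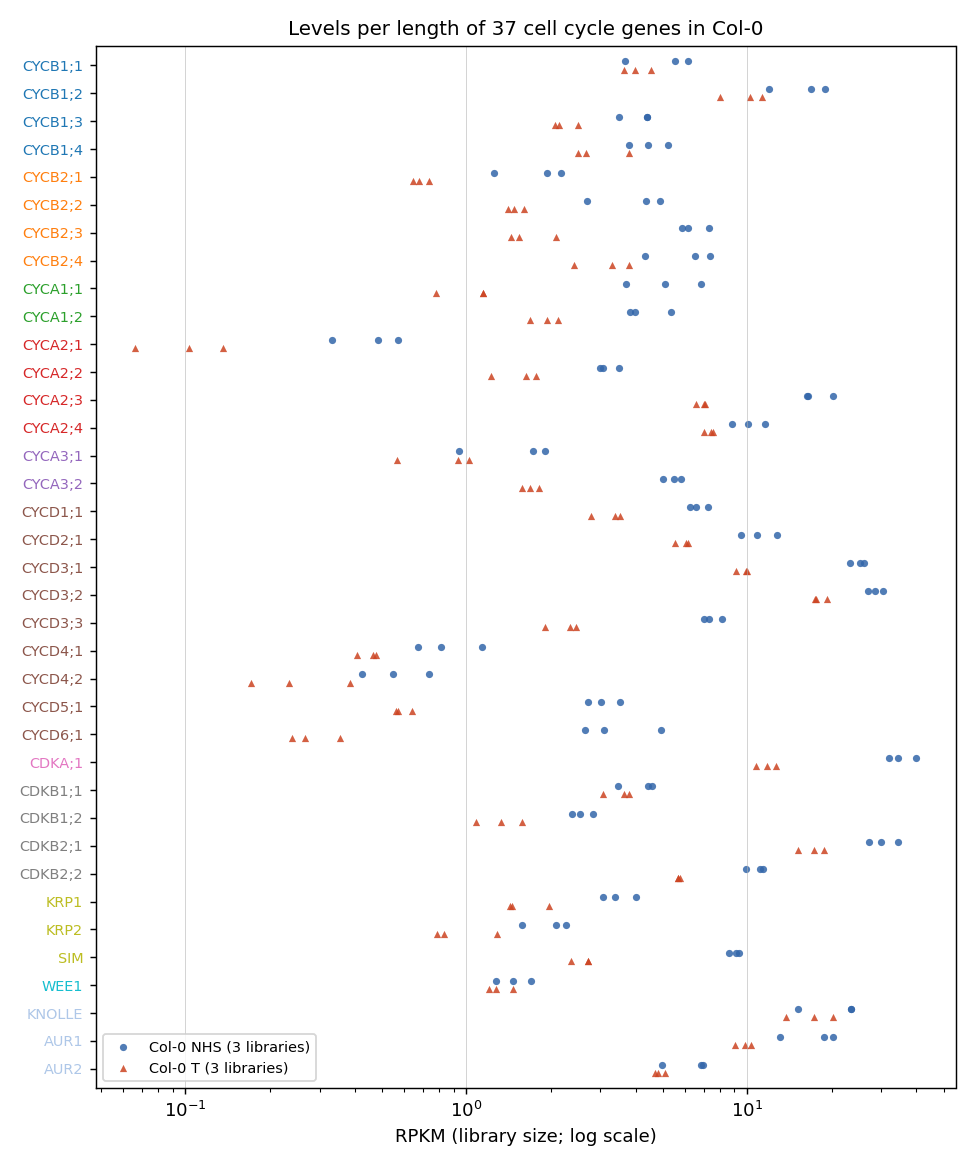
RPKM (log axis) of the 37 genes in each of the 3 Col-0 NHS libraries (blue circles) and the 3 Col-0 T libraries (red triangles), RPKM being scaled by library size alone. Levels run from 0.462 (CYCA2;1) to 35.5 (CDKA;1) on average in NHS, and on this scale the mean of every gene is lower after T. The median log2FC over all genes tested is -0.82 on this scale.

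The letters AACGG are the core of the mitosis-specific activator element, to which MYB3R factors bind in G2 and mitosis. In the 300 bases from 250 before to 50 after each annotated gene start (TAIR10.1), searched on both strands, AACGG was present in 19 of the 37 genes (51.4%), against 26% of the 20846 promoters of genes tested. It was present in all 4 B1 cyclins, 3 of 4 B2 cyclins, both A1 cyclins, all 3 mitosis genes and WEE1. It was also present in 2 of 3 CDK inhibitors, KRP1 (7 matches) and KRP2 (3 matches). Of the other classes, 1 of 4 A2, 1 of 2 A3 and 1 of 9 D cyclins and 1 of 4 CDKB genes held it, and CDKA;1 did not. Matches on the gene's own strand upstream of the start in other genes are not printed, among them CYCA2;1 and KRP1, both called lower in P + T/P further on. The windows below are those of B1 and B2 cyclins, WEE1, KNOLLE and AUR2. Of these, CYCB1;2 and CYCB1;3 passed in neither T/NHS nor P + T/P of Col-0 after TMM. Each window is 30 bases, written 5′ to 3′ on the strand of the gene, with capitals for the AACGG on that strand nearest upstream of the start.
CYCB1;1, chr4:17624304-17624333 minus strand: tatttcttataaAACGGctcatcgtcctca
CYCB1;2, chr5:1861729-1861758 minus strand: atttaatcatctAACGGcaacagatgaaat
CYCB1;3, chr3:3627295-3627324 minus strand: agttcatcatccAACGGctagaagtctaat
CYCB2;1, chr2:7663958-7663987 plus strand: ccctcatgatccAACGGttatattctaaat
CYCB2;2, chr4:16901460-16901489 plus strand: ccttcatgatccAACGGtcatcttaatcac
CYCB2;3, chr1:7137877-7137906 minus strand: tggcgttgatccAACGGctgagatgaacta
WEE1, chr1:673220-673249 plus strand: tcctgaagattgAACGGtccagaattgatt
KNOLLE, chr1:2710995-2711024 minus strand: caaatggacgacAACGGatacatcgccaaa
AUR2, chr2:11038180-11038209 minus strand: tatttcaaatcaAACGGaccacactcaaaa

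The 3 B2 cyclins carry the same 5 letters, GATCC, before the core. Its first base lay 6 bases before the annotated start in AUR2, 12 in KNOLLE, 13 in CYCB1;1 and 124 in CYCB2;2. The E2F words TTTCCCGC, TTTGGCGC, TTTCGCGC and TTTGCCGC were found in CYCA1;2 and CYCD3;3 (5.41% of the genes, against 1.88% of all promoters). The heat shock element core GAANNTTC was found in CYCB1;3, CYCB1;4 and CDKB1;1 (8.11%, against 11.3%). A match describes the letters in the window only.

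The priming HS left no detectable change in these genes 2 days later. In Col-0 P/NHS none of the 37 passed or was called, in either direction, where 0.0192% of all genes were called lower and 0.197% higher. Their log2FC ran from -0.33 (CYCB2;1) to 0.43 (CYCA2;1), with a median of -0.06 against 0.01 over all genes. At an unadjusted p under 0.05 edgeR gave 1 gene, CYCA2;3 (-0.25 ± 0.11), and DESeq2 called 0.

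In Col-0 T/NHS the D cyclins CYCD6;1 and CYCD5;1, the A cyclins CYCA1;1 and CYCA2;1, the B2 cyclin CYCB2;3 and the inhibitor SIM fell, by 1.02 to 2.85 on the log2 scale. These 6 of 37 genes (16.2%) stand against 17.1% of all genes called lower, and 0 were called higher, against 8.68% (6 were higher at an unadjusted p under 0.05, and DESeq2 also called 0). By the adjusted p alone 15 genes were lower (32.5% of all genes were) and 5 were higher, against 29.9%. The median of the 37 genes was -0.26, beside -0.05 over all genes. With library size as the only scaling all 37 had a log2FC below 0, 33 with an adjusted p under 0.05, and 0 were higher. The median was then -1.03 for the 37 genes and -0.82 over all genes. The shares of all genes below 0 and passing on this scale are not given here. On it 19 of the 37 were called lower, against 41% of all genes. In these bulk samples fewer dividing cells and less RNA per cell cannot be told apart.

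Among genes of G1, 2 of the 9 D cyclins were called lower, 5 passed in the lower direction by the adjusted p alone and 0 in the higher one, with a median of -0.34. Scaled by library size alone 6 were called lower (median -1.10). CYCD6;1 (AT4G03270), known for the formative division of the root ground tissue, had 4.24, 4.98 and 7.94 CPM in the NHS libraries and 0.386, 0.429 and 0.571 CPM in the T libraries. The groups were far apart, with at most 17 read pairs in a T library, and the log2FC was -2.85 ± 0.43 (adjusted p = 1.25e-06), the largest fall of the 37. CYCD5;1 (AT4G37630) had 5.02, 6.55 and 5.62 CPM in NHS and 1.06, 1.19 and 1.04 CPM in T. Here too no library overlapped, and the log2FC was -1.61 ± 0.19 (adjusted p = 1.83e-08). CYCD3;3 (-0.97 ± 0.14, and -1.74 by library size) and CYCD3;1 (-0.58 ± 0.11, and -1.36), which keep leaf cells dividing, and CYCD1;1 (-0.28 ± 0.11, and -1.05) fell less after TMM and were called only by library size. The others passed only by library size, all lower, with -0.12 after TMM and -0.90 by library size for CYCD2;1, 0.12 and -0.66 for CYCD3;2, -0.18 and -0.95 for CYCD4;1, and -0.34 and -1.10 for CYCD4;2.

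The A cyclins of S phase and early mitosis included CYCA1;1 and CYCA2;1 among the called genes. CYCA1;1 (AT1G44110) had 6.74, 12.5 and 9.32 CPM in NHS and 2.09, 1.42 and 2.08 CPM in T. Every T library was below every NHS library, with a log2FC of -1.57 ± 0.24 (adjusted p = 1.76e-06). CYCA2;1 (AT5G25380), a cyclin of low level, had 0.648, 1.11 and 0.942 CPM in NHS and 0.129, 0.264 and 0.201 CPM in T. The groups did not overlap and it had a log2FC of -1.40 ± 0.37 (adjusted p = 0.0018). CYCA3;2 (-0.91 ± 0.14, and -1.68 by library size), CYCA2;3 (-0.58 ± 0.11, and -1.36) and CYCA1;2 (-0.42 ± 0.14, and -1.19) also fell, and were called only by library size. CYCA2;2 (-0.27, and -1.05), CYCA3;1 (-0.08, and -0.85) and CYCA2;4 (0.31, and -0.47) did not pass after TMM and passed as lower by library size.

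Of the B cyclins 1 was called lower and none higher, and B1 was not tested against B2. CYCB2;3 (AT1G20610) fell by 1.15 ± 0.17 (adjusted p = 9.33e-07), from 11.8, 14.7 and 12.3 CPM in NHS to 2.9, 3.1 and 4.2 CPM in T, with no overlap. CYCB2;2 (-0.63 ± 0.23, and -1.41 by library size) and CYCB2;1 (-0.60 ± 0.18, and -1.37) fell less, CYCB2;4 passed only by library size (-0.16 after TMM, and -0.94), and the B2 median was -0.62 (-1.39 under library size alone). The B1 median was 0.14 after TMM but -0.64 under library size alone. Of the B1 cyclins only CYCB1;1 (AT4G37490), often used as a marker of G2 and mitosis, met the adjusted p, with a log2FC of 0.45 ± 0.19 (adjusted p = 0.0463) after TMM and -0.33 (adjusted p = 0.116) under library size alone. Its libraries overlapped in CPM, with 5.96, 9.99 and 9.01 in NHS and 6.47, 5.94 and 7.38 in T, and its call was lost in 13 of the 36 fits that each left out 1 library, with an adjusted p of up to 0.272 without Col-0 NHS replicate 1. CYCB1;2 (0.09, and -0.69 under library size alone), CYCB1;3 (-0.09, and -0.87) and CYCB1;4 (0.20, and -0.59) did not pass after TMM and passed as lower by library size.

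A further 4 genes of mitosis and its control were higher after TMM and below NHS under library size alone. Their overlap is judged on CPM by library size, a scale on which the median over all genes was -0.82. Their ranges after TMM are not given here. CDKB1;1 (AT3G54180), a kinase of G2 and of the stomatal lineage, had 4.79, 6.09 and 6.29 CPM in NHS and 5.22, 4.23 and 5.00 CPM in T. The ranges overlap, and its log2FC was 0.53 ± 0.18 (adjusted p = 0.0116) after TMM and -0.25 (0.204) by library size. KNOLLE (AT1G08560) had 21.0, 32.4 and 32.5 CPM in NHS and 24.0, 19.0 and 28.0 CPM in T, also overlapping, with 0.51 ± 0.17 (adjusted p = 0.00999) after TMM and -0.27 (0.126) by library size. WEE1 (AT1G02970) had 2.79, 2.42 and 3.23 CPM in NHS and 2.41, 2.28 and 2.79 CPM in T. Its ranges overlapped too. On the TMM scale the means of WEE1 were 2.23 and 3.39 CPM and the log2FC 0.60 ± 0.21 (adjusted p = 0.0137), against -0.17 (0.471) by library size. AUR2 (AT2G25880) had 11.8, 16.2 and 16.5 CPM in NHS and 12.1, 11.2 and 11.5 CPM in T, with overlap and 0.42 ± 0.13 (adjusted p = 0.00637) after TMM and -0.36 (0.0184) by library size. The calls after TMM of CDKB1;1, KNOLLE and WEE1 were lost on leaving out a library. The first had an adjusted p of 0.068 without NHS replicate 1 and 0.052 without T replicate 3, KNOLLE 0.101 and 0.120 without these libraries, and WEE1 0.0716 without NHS replicate 2 and 0.0849 without T replicate 3.

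CDKA;1, the kinase of all phases, fell, from 60.0, 51.8 and 47.9 CPM in NHS to 18.9, 17.6 and 16.1 CPM in T. The groups were widely separated, and the log2FC was -0.83 ± 0.11 (adjusted p = 2.74e-07), short of a call, and -1.60 by library size, where it was called. Of the inhibitors SIM (AT5G04470), which blocks mitosis in growing leaf hairs, fell by 1.02 ± 0.20 (adjusted p = 5.24e-05), from 6.84, 7.21 and 7.40 CPM to 1.87, 2.15 and 2.15 CPM. KRP1 (-0.33, and -1.10 by library size) and KRP2 (-0.26, and -1.03) did not pass after TMM, and all 3 inhibitors were called lower by library size (median -1.10). The kinases CDKB1;2 (-0.18, and -0.96), CDKB2;1 (-0.06, and -0.83) and CDKB2;2 (-0.15, and -0.92) and AUR1 (-0.06, and -0.83) also passed only by library size, as lower.

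**Figure D2:**
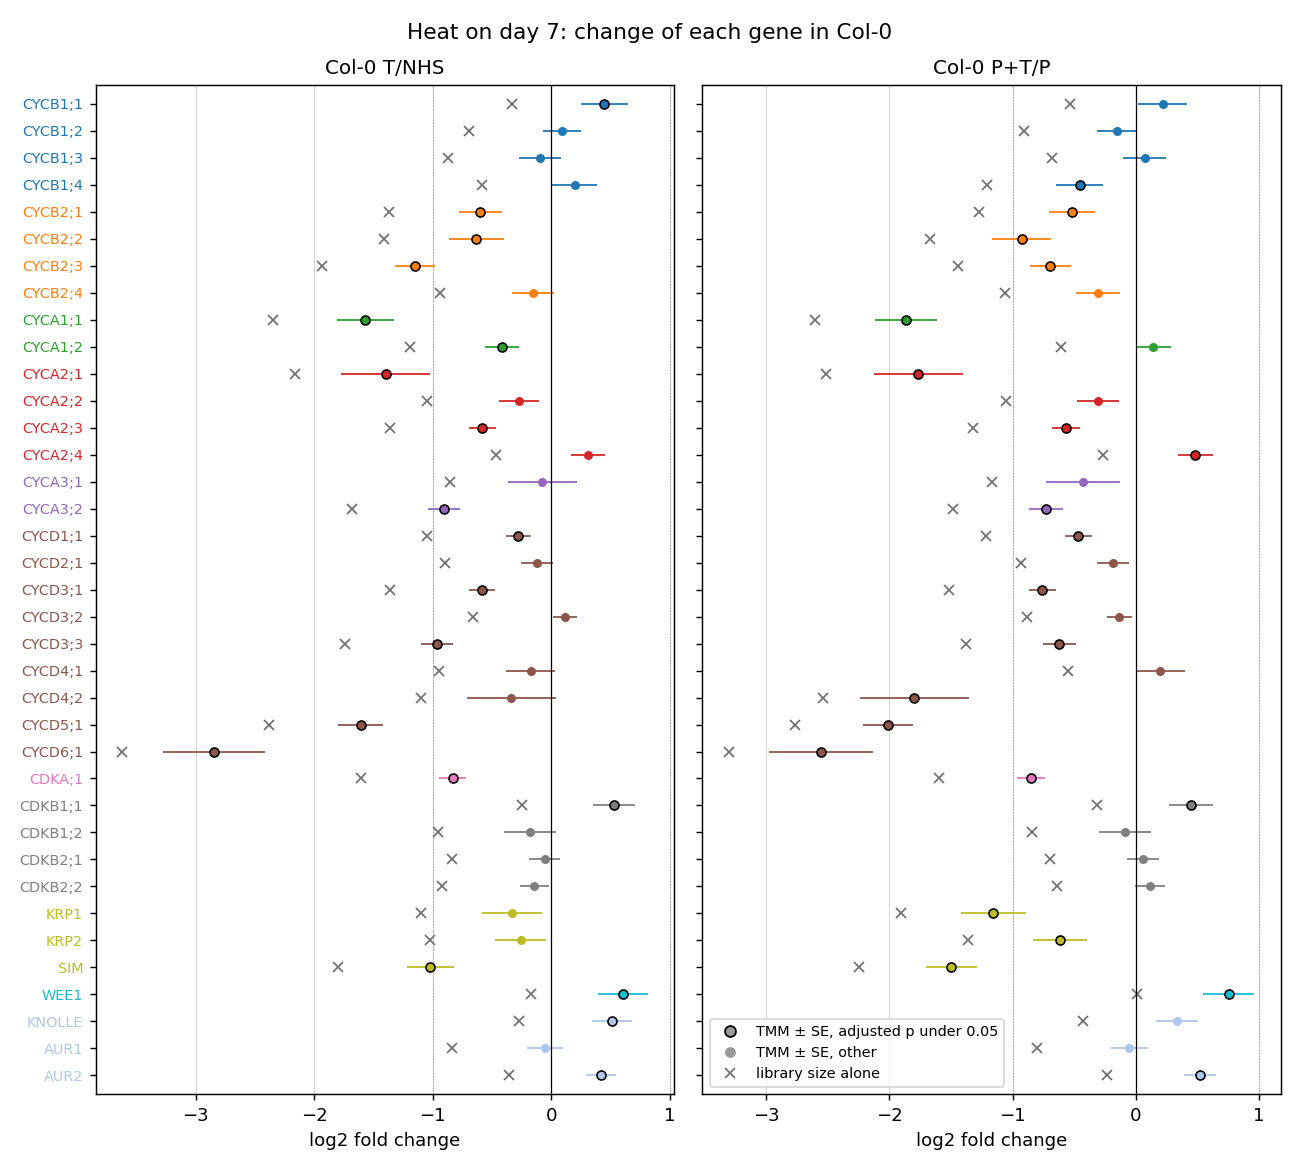
Log2FC ± SE of the 37 genes in Col-0 T/NHS and P + T/P after TMM (points, ringed in black where the adjusted p was under 0.05) and under library size alone (grey crosses), with dotted lines at 1 and -1. CYCD6;1, CYCD5;1 and CYCA1;1 lie beyond -1 in both, and genes above 0 after TMM such as CDKB1;1 (0.53 in T/NHS) have their cross below 0 (-0.25), except WEE1 in P + T/P (0.01).

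After priming, the genes called lower by the same day 7 HS (P + T/P) were 3 of the 9 D cyclins, 2 of the 8 A cyclins and 2 of the 3 CDK inhibitors. These 7 genes (18.9%) stand against 17.6% of all genes, and 0 were called higher (9.73%, with 4 at an unadjusted p under 0.05 and 0 in DESeq2). By the adjusted p alone 18 were lower (34.2% of all genes) and 4 higher (30.4%), and the median was -0.43 against -0.06 over all genes. Scaled by library size alone 21 genes were called lower (41.2%) and 36 of the 37 were below 0. The median was then -1.17 for the 37 genes and -0.81 over all genes, whose share below 0 is not given here. CYCD5;1 had 4.90, 5.66 and 5.17 CPM in P and 0.782, 0.758 and 0.768 CPM in P + T, and fell by 2.01 ± 0.20 (adjusted p = 5.54e-10). The root cyclin CYCD6;1 had 4.97, 3.69 and 7.73 CPM in P and 0.717, 0.395 and 0.534 CPM in P + T, and fell by 2.56 ± 0.42 (adjusted p = 4.33e-06). CYCA1;1 had 10.6, 6.73 and 8.59 CPM in P and 1.86, 1.68 and 0.701 CPM in P + T, and fell by 1.86 ± 0.25 (adjusted p = 1.69e-07). In each of these 3 cyclins the groups were apart in every library.

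CYCD4;2 (AT5G10440), a D cyclin with a role in stomata of the hypocotyl, fell by 1.80 ± 0.45 (adjusted p = 0.000823) at a very low level, from 29, 29 and 15 read pairs in P to 2, 4 and 6 in P + T. The remaining calls were CYCA2;1 (-1.77 ± 0.36), SIM (-1.5 ± 0.21) and KRP1 (-1.16 ± 0.26), so that 2 of the 3 CDK inhibitors were called, and KRP2 fell by 0.62 ± 0.22 (-1.36 by library size, where it was called). KRP1 (AT2G23430), which binds CDKA with D cyclins, had 3.94, 3.98 and 5.59 CPM in P and 0.847, 1.71 and 1.03 CPM in P + T, with no overlap. CDKA;1 fell by 0.85 ± 0.11 (adjusted p = 1.83e-07, and -1.60 and called by library size), with 57.6, 49.4 and 48.7 CPM in P and 19.5, 17.1 and 14.8 CPM in P + T. Among the B cyclins CYCB2;1 (-0.52, and -1.27 by library size), CYCB2;2 (-0.92, and -1.67), CYCB2;3 (-0.70, and -1.44) and CYCB1;4 (-0.46 ± 0.19, adjusted p = 0.0383, and -1.21) fell, all 4 called only by library size. This gene had 10.03, 8.19 and 9.51 CPM in P and 4.07, 3.92 and 3.97 CPM in P + T and was the only B1 cyclin to pass after TMM.

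The 4 genes higher after TMM did not separate in CPM. WEE1 had 2.44, 3.08 and 3.16 CPM in P and 3.26, 3.16 and 2.30 CPM in P + T, with 0.75 ± 0.21 (adjusted p = 0.0021) after TMM and 0.01 (0.969) under library size alone. AUR2 had 15.2, 12.4 and 14.5 CPM in P and 12.9, 12.1 and 10.9 CPM in P + T, with 0.52 ± 0.13 (adjusted p = 0.000952) after TMM and -0.23 by library size. CYCA2;4 (AT1G80370), one of the A2 cyclins that hold back endoreduplication, had 16.3, 15.7 and 14.3 CPM in P and 16.7, 11.4 and 10.4 CPM in P + T, with 0.48 ± 0.14 (adjusted p = 0.00429) after TMM and -0.26 by library size. CDKB1;1 had 5.99, 4.82 and 6.25 CPM in P and 4.66, 4.08 and 5.01 CPM in P + T, with 0.45 ± 0.18 (adjusted p = 0.0302) after TMM and -0.31 by library size. In all of them the CPM ranges of P and P + T overlapped by library size, and the ranges after TMM are not given here. This kinase had an adjusted p of 0.130 without P replicate 2 and 0.164 without P + T replicate 3, and CYCA2;4 one of 0.0927 without P + T replicate 1.

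Whether priming altered the response to the second HS is the question of P + T/T, which shares its T libraries with T/NHS and its P + T libraries with P + T/P. Only 1 gene was called lower, CYCD4;2 (1.63% of all genes), and 0 higher (3.04%, with 2 at an unadjusted p under 0.05 and 0 in DESeq2). By the adjusted p alone 2 were lower (7.01%) and 1 was higher (9.66%), all of them D cyclins. It went from 10, 16 and 7 read pairs in T to 2, 4 and 6 in P + T, a log2FC of -1.44 ± 0.48 (adjusted p = 0.0384). No library overlapped, but the call was lost on leaving out any of 4 libraries (adjusted p = 0.0527 to 0.215), and with DESeq2 (0 genes called). CYCD1;1 (AT1G70210) had 8.85, 8.49 and 6.95 CPM in T and 7.04, 7.31 and 4.64 CPM in P + T, with overlap, and -0.37 ± 0.11 (adjusted p = 0.0188). Its adjusted p was 0.0846 under library size alone, 0.182 without P + T replicate 3, 0.0838 without T replicate 1 and 0.0607 without T replicate 2. CYCD3;3 (AT3G50070) had 2.74, 3.37 and 3.52 CPM in T and 4.56, 4.48 and 4.44 CPM in P + T, all higher, and rose by 0.47 ± 0.14 (adjusted p = 0.0206, and 0.0783 and 0.145 without P + T replicate 3 and T replicate 1).

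**Figure D3:**
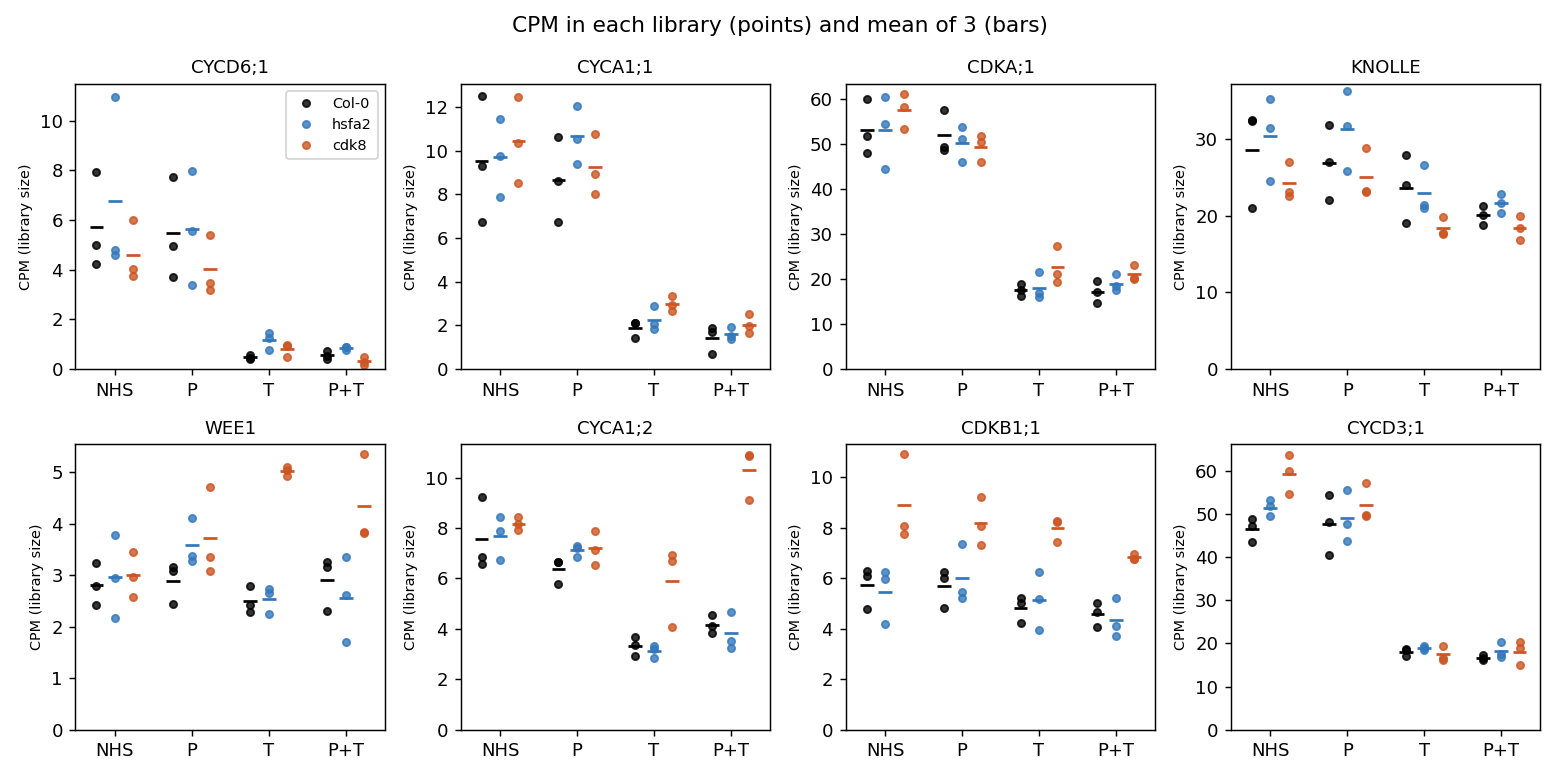
CPM of 8 of the genes in every library of the 12 groups, scaled by library size alone, with bars at the mean of 3. CYCD6;1, CYCA1;1, CDKA;1 and CYCD3;1 drop after T and P + T in all 3 genotypes, KNOLLE and CDKB1;1 overlap between NHS and T in Col-0, and CYCA1;2 stands higher in cdk8 at P + T (9.11 to 10.9 CPM) than in Col-0 (3.84 to 4.56 CPM).

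The treatment contrasts within each mutant also called D, A and B2 cyclins lower, as T/NHS did in Col-0. In hsfa2 T/NHS 5 genes were called lower (15.9% of all genes) and 0 higher (8.97%, with 6 at an unadjusted p under 0.05), the lower ones being CYCD6;1 (-1.79), CYCD5;1 (-1.45), CYCA1;1 (-1.32), CYCD4;2 (-1.20) and CYCB2;3 (-1.16). In hsfa2 P + T/P 7 were lower (16.2%), CYCB2;2 (-1.02) among them, and 0 higher (9.45%, also 0 at an unadjusted p under 0.05). In cdk8 T/NHS 7 were lower (15.9%), with CYCD3;1 (-1.18) and CYCA3;2 (-1.01) among them, and 1 was higher (7.53%), WEE1 at 1.34 ± 0.20 (adjusted p = 1.24e-06, and 0.74 under library size alone). In cdk8 P + T/P 7 were lower (17.9%), CYCD6;1 the most at -3.05, and 1 was higher (7.85%), CYCA1;2 at 1.15 ± 0.14 (adjusted p = 2.18e-08, and 0.52 under library size alone). The called lower genes under library size alone numbered 21 in hsfa2 T/NHS (40.4% of all genes), 23 in hsfa2 P + T/P (41.8%), 15 in cdk8 T/NHS (31.9%) and 19 in cdk8 P + T/P (36.2%).

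The hsfa2 line was set against Col-0 within each treatment, with calls by the adjusted p alone. No cell cycle gene passed in edgeR at NHS (0.0192% of all genes did), P (0.307%), T (0.153%) or P + T (6.51%), nor did any have an hsfa2 by T/NHS (0.0048%) or hsfa2 by P + T/T interaction (1.2%). At an unadjusted p under 0.05 edgeR gave 0 genes at NHS, 1 lower and 1 higher at P, 0 lower and 2 higher at T, 1 lower and 1 higher at P + T, and 1 gene in each interaction. DESeq2 gave 1 gene in all, KRP1 at P + T. KRP1 had 2.62, 1.60 and 2.20 CPM in the mutant against 0.847, 1.71 and 1.03 in Col-0, so that 1 pair of libraries overlapped, with 0.84 ± 0.28 and an adjusted p of 0.0638 in edgeR, and 0.0444 in DESeq2.

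In cdk8 more of these genes passed against Col-0 than in hsfa2, and so did more of all genes. The shares of all genes stand beside the counts. Without HS CDKB1;1 and CYCA2;4 were higher in cdk8 (2.68% of all genes were higher) and 0 genes were lower (4.32%, with 1 at an unadjusted p under 0.05 and 0 in DESeq2). CDKB1;1 had 8.08, 10.9 and 7.75 CPM in cdk8 against 4.79, 6.09 and 6.29 CPM in Col-0, with no overlap and 0.59 ± 0.17 (adjusted p = 0.0349). CYCA2;4 had 26.7, 35.3 and 20.11 CPM in cdk8 against 16.2, 21.1 and 18.4 CPM in Col-0, where 1 cdk8 library fell within the Col-0 range, and 0.50 ± 0.14 (adjusted p = 0.0237). Both calls rested on single libraries: without cdk8 NHS replicate 2 the adjusted p was 0.197 for the kinase and 0.241 for the cyclin, and without Col-0 NHS replicate 1 it was 0.185 and 0.140. It was 0.0808 for the kinase without Col-0 NHS replicate 2 and 0.0677 for the cyclin without replicate 3. After P only CYCA2;4 was higher (2.69%) and 0 were lower (3.69%, also 0 at an unadjusted p under 0.05 and in DESeq2), with 23.4, 24.7 and 24.2 CPM in cdk8 against 16.3, 15.7 and 14.3 CPM in Col-0. The groups did not overlap, and the log2FC was 0.59 ± 0.14 (adjusted p = 0.00751).

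At T 6 genes were higher in cdk8 (10.2% of all genes) and 1 was lower (12%). WEE1 had 4.94, 5.05 and 5.10 CPM in cdk8 against 2.41, 2.28 and 2.79 CPM in Col-0, and 0.78 ± 0.20 (adjusted p = 0.0055). CYCA1;2 (AT1G77390, TARDY ASYNCHRONOUS MEIOSIS, known from male meiosis) had 6.93, 6.68 and 4.07 CPM against 3.35, 3.67 and 2.92 CPM, and 0.59 ± 0.15 (adjusted p = 0.00331). Both were higher in every cdk8 library than in any Col-0 library. CYCA2;1 had 0.556, 0.489 and 0.629 CPM in cdk8 against 0.129, 0.264 and 0.201 CPM, with no overlap and 1.25 ± 0.39 (adjusted p = 0.0202, but 0.0696 without cdk8 T replicate 3 and 0.114 without Col-0 T replicate 1). CDKB1;1 had 8.27, 8.22 and 7.45 CPM against 5.22, 4.23 and 5.00 CPM, again with no overlap, and 0.49 ± 0.18 (adjusted p = 0.0425, lost without any of 5 libraries at 0.0687 to 0.190). CYCA2;2 (0.46 ± 0.17) and CYCD3;3 (0.42 ± 0.14) completed the 6. KNOLLE was the lower gene, with 17.7, 19.8 and 17.8 CPM in cdk8 against 24.0, 19.0 and 28.0 CPM in Col-0, overlapping in 1 library, and -0.60 ± 0.17 (adjusted p = 0.0109, but 0.0613 without cdk8 T replicate 1, 0.103 without Col-0 T replicate 3 and 0.0806 under library size alone). With the replicate number as a block 2 genes were lower at T, CYCD3;1 being added at -0.29 (adjusted p = 0.0234). By library size alone 13 were higher and 0 lower, with a median of 0.37 for the 37 genes and 0.26 over all genes. The share of all genes under this scaling is not given here.

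CYCA1;2 differed most between cdk8 and Col-0 at P + T. It had 10.9, 9.11 and 10.8 CPM in cdk8 against 4.56, 4.12 and 3.84 CPM in Col-0, and 3.83 CPM on average in hsfa2. The cdk8 libraries were all above those of Col-0, 2.19-fold over Col-0 after TMM (log2FC 1.13 ± 0.14, adjusted p = 3.31e-07, and 1.30 under library size alone). CYCA2;3 was the other higher gene (0.32 ± 0.11, adjusted p = 0.0456), with 21.2, 14.7 and 15.7 CPM against 13.1, 11.9 and 11.4 CPM and no overlap, and lost its call in 16 of the 36 fits that each left out 1 library (adjusted p = 0.0503 to 0.369). These 2 stand against 6.49% of all genes higher, and the 2 lower genes against 11.9%. CYCB2;3 had 3.75, 2.76 and 2.99 CPM against 5.31, 3.99 and 3.64 CPM, with overlap and -0.62 ± 0.18 (adjusted p = 0.0135, but 0.0896 under library size alone, 0.0729 without cdk8 P + T replicate 2 and 0.104 without Col-0 P + T replicate 1). CYCD4;1 (AT5G65420) had 0.888, 0.998 and 0.829 CPM against 1.04, 1.42 and 1.24 CPM, again all lower, and -0.62 ± 0.21 (adjusted p = 0.0407, but 0.12 under library size alone and 0.0521 to 0.149 without any of 5 libraries). Under library size alone 6 genes were higher and 0 lower, with a median of 0.25 for the 37 genes and 0.20 over all genes. The share of all genes under this scaling is not given here.

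**Figure D4:**
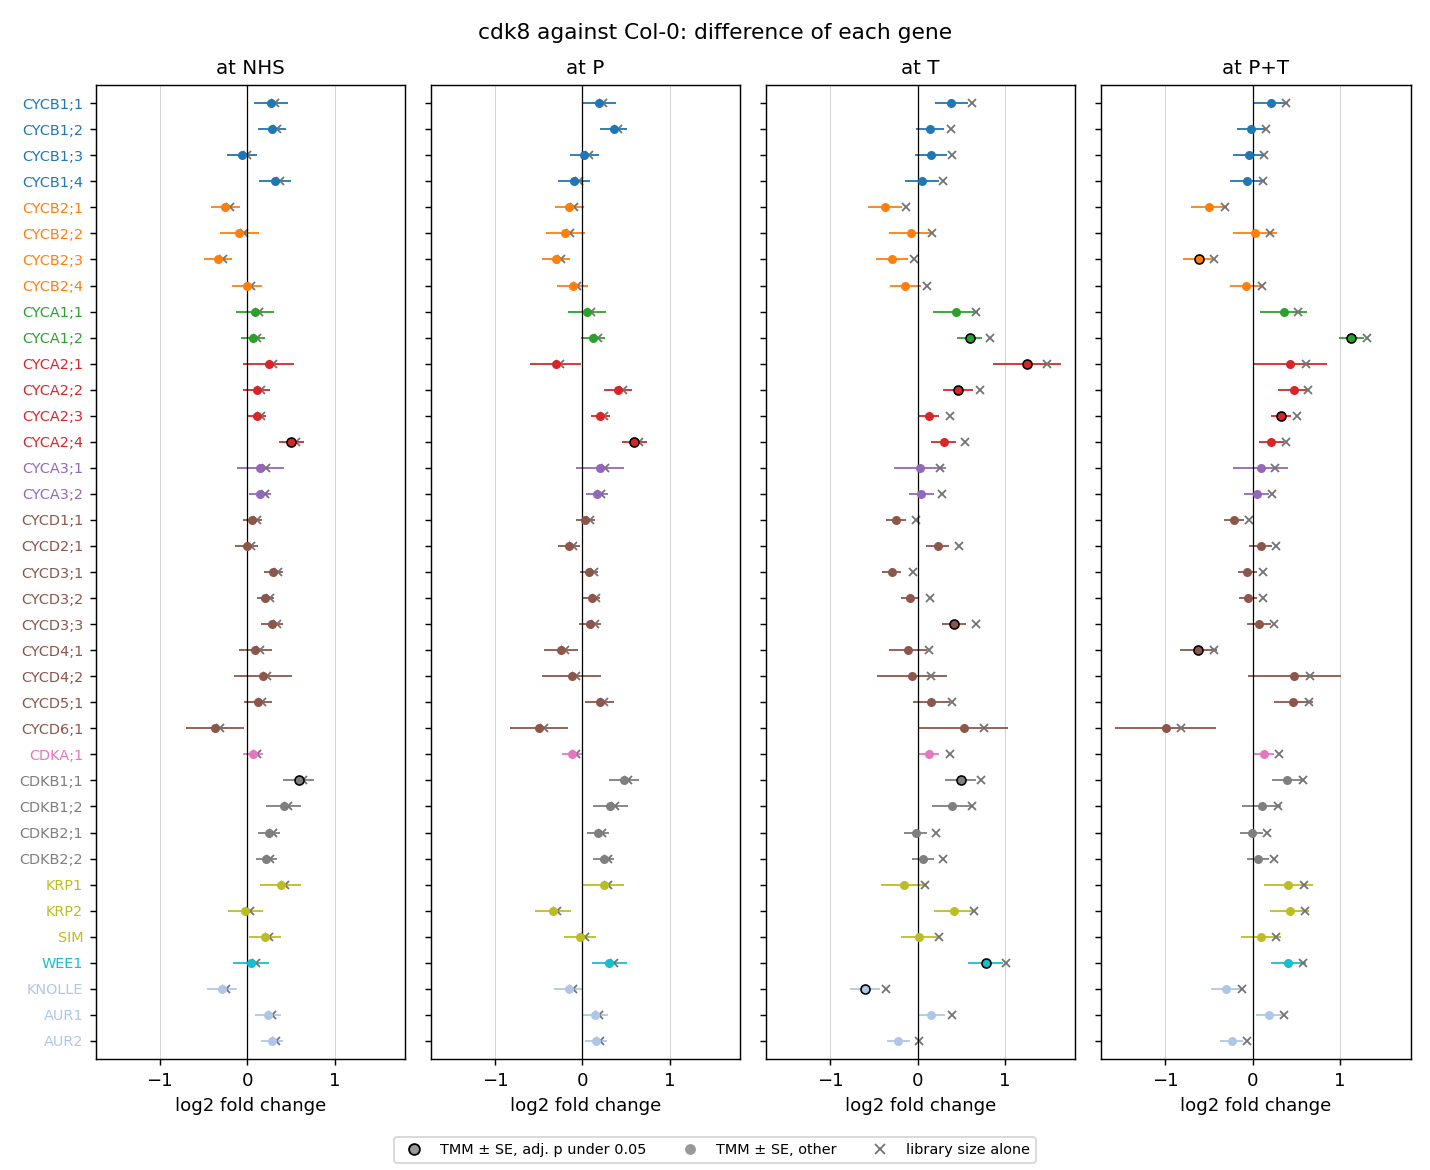
Log2FC ± SE of the 37 genes between cdk8 and Col-0 at each treatment after TMM, with grey crosses under library size alone. CYCA1;2 stands out at P + T (1.13), WEE1 (0.78) and CYCA2;1 (1.25) at T, and the crosses lie to the right of the points, farthest at T.

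A difference between genotypes at T is not yet a difference in heat response, which the interaction tests. Of the 37 genes CYCD3;1 (AT4G34160) passed for cdk8 by T/NHS (4.3% of all genes did), and 0 passed for cdk8 by P + T/T (0.739% did, and 1 gene, CYCA1;2, at an unadjusted p under 0.05, with DESeq2 also at 0). This cyclin had 43.6, 47.3 and 48.8 CPM in Col-0 NHS and 18.6, 17.0 and 18.8 CPM in Col-0 T, and 63.8, 59.9 and 54.6 CPM in cdk8 NHS and 19.4, 16.3 and 16.7 CPM in cdk8 T. It was thus higher in every cdk8 library than in Col-0 without HS, while the ranges overlapped after T. The log2FC of T/NHS was -0.58 in Col-0 and -1.18 in cdk8, a difference of -0.59 ± 0.15 (adjusted p = 0.0161, and 0.00306 in DESeq2), and -0.41 (adjusted p = 0.128) under library size alone. The adjusted p was 0.0501 without Col-0 NHS replicate 1 and 0.0543 without Col-0 T replicate 3. For CYCA1;2 the interactions were 0.53 with T/NHS (adjusted p = 0.153) and 0.53 with P + T/T (0.358), and for WEE1 0.74 with T/NHS (0.178), none of them passing.

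Other genes of the cycle, outside the 37, were counted in Col-0 T/NHS by the adjusted p alone, by which 32.5% of all genes were lower and 29.9% higher after TMM. Under library size alone the median over all genes was -0.82, and the shares by the adjusted p are not given here. Of 11 genes of DNA replication 3 were lower and 5 higher (median 0.32), but 6 lower and 1 higher under library size alone (median -0.46), with PCNA1, the sliding clamp, at 1.46 ± 0.16 (0.68 under library size alone) and the licensing factor CDT1A at -1.45 ± 0.23. Of 12 further genes of M phase and cytokinesis 1 was lower and 7 higher (median 0.51), but 5 lower and 1 higher under library size alone (median -0.27), led by CDC20.1, an activator of the anaphase-promoting complex, at 1.21 (0.43 under library size alone). Of 14 transcriptional regulators 2 were lower and 3 higher (median 0.16), but 13 lower and 0 higher by library size (median -0.62). Of 9 other CDK inhibitors 4 were lower and 1 higher (median -0.40), and 7 lower and 0 higher by library size (median -1.16). Of 12 genes of CDK activation and the anaphase-promoting complex 3 were lower and 5 higher (median 0.21), but 6 lower and 0 higher by library size (median -0.57).

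Of 7 markers of dividing and stomatal lineage cells with enough reads 4 fell in Col-0 T/NHS and 0 rose, where 32.5% of all genes were lower by the adjusted p. All 7 fell under library size alone, where the median over all genes was -0.82. Those that fell after TMM were TMM (TOO MANY MOUTHS, a receptor of the stomatal lineage) at -2.16, FAMA at -1.48, PLT1 at -1.45 and MUTE at -0.99. PLT2 (-0.76), SPCH (-0.34) and STM (0.37, and -0.41 by library size) did not pass. The summed level of the 9 markers listed was 46.3 to 63.3 CPM in Col-0 NHS, 50.6 to 57.1 in P, 15.2 to 17.1 in T and 18.4 to 23.8 in P + T. It was 21.1 to 26.7 CPM in cdk8 T, above the Col-0 T range, and 20.9 to 22.7 in cdk8 P + T, within the Col-0 P + T range. These sums are scaled by library size, where the median over all genes in cdk8 against Col-0 at T was 0.26. WUS and CLV3, which mark the shoot stem cell niche, had too few reads to be tested, and no marker was at 0 in every Col-0 T or cdk8 T library. The root hair marker COBL9 fell by 3.51 in Col-0 T/NHS, whereas LHCB1.1, of green tissue, was at 0.10 (adjusted p = 0.601) after TMM and at -0.68 (2.87e-05) by library size, where COBL9 was at -4.28. The part of these markers in the results on the cell cycle genes was not tested.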

How the data were processed

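RNA of whole seedlings was selected with oligo-dT and sequenced as read pairs. The authors aligned reads with STAR 2.7.10a to TAIR10 and deposited 1 table of raw gene counts per library (36 tables). The strand setting of the counting is not given in the sources used here. Rows that name no gene (9.26 to 12.1% of read pairs) were left out. Counts were filtered with filterByExpr (minimum count 10, minimum total 15), which left 20847 genes, scaled by TMM and fitted with edgeR 4.0.16 (quasi-likelihood, 12 group means, all 36 libraries) in R 4.3.3, with Benjamini-Hochberg adjustment over all genes. Treatment contrasts were called at an adjusted p under 0.05 and an absolute log2FC over 1, genotype differences and interactions at an adjusted p under 0.05. SE is the absolute log2FC divided by the square root of F. The fit was also run on simulated counts in which 200 genes were changed by known folds, up and down alike, in Col-0 T/NHS. These counts had no shift in composition like that after the day 7 HS, so they cannot check the scaling. Gene coordinates, promoters and exon lengths came from the RefSeq annotation of TAIR10.1, in which all 37 genes were found.

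Full values are given for up to 4 genes a comparison and direction with the largest change among those that passed, for every interaction, for genes passing against most of their class, and for CDKA;1 and WEE1. The genes and lists were chosen with earlier results of these data known. Alternatives were DESeq2 1.42.0, its size factors, library size alone, 2 other filters, a replicate block, fits of only the genotypes compared, and leaving out each library. Libraries of the same replicate number deviated together over 13554 genes (median correlation 0.23, against -0.13 for other numbers), with all 3 pairs over 0.1 in 11 of 20 comparisons, so the blocked value is given where it changes a call. Replicates of a group always differed beyond sampling noise (36 pairs, with a chi-square of 6.47 to 57.6 per degree of freedom). The labels call the replicates biological but do not say that they came from separate cultures, so p-values measure the spread between these libraries.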

Additional observations from a re-analysis of the deposited data

Results flagged for a closer look

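The response of CYCD3;1 to the day 7 HS differed between cdk8 and Col-0 by a test of the difference itself. No other cell cycle gene described here passed this test, which 4.3% of all genes passed, so the set does not stand out by it. The interaction of cdk8 with T/NHS was -0.59 on the log2 scale after TMM (adjusted p = 0.0161, edgeR), with T/NHS at -1.18 in cdk8 and -0.58 in Col-0. Under library size alone the interaction was -0.41 (adjusted p = 0.128). The call after TMM was also lost on leaving out a library, with an adjusted p of 0.0501 without Col-0 NHS replicate 1 and 0.0543 without Col-0 T replicate 3. In CPM every cdk8 library was above every Col-0 library without HS, while the ranges overlapped after T. CYCD3;1 overlaps another gene on its own strand.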

How the results depend on the processing

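The Col-0 falls of CYCD6;1, CYCD5;1, CYCA1;1 and CDKA;1 in T/NHS and P + T/P kept their direction and an adjusted p under 0.05 in every alternative run, CDKA;1 passing the fold of a call only by library size (-1.60 in both). Scaling had the widest effect. Under library size alone the genes called lower numbered 19 in T/NHS and 21 in P + T/P, cdk8 against Col-0 gave 13 higher and 0 lower genes at T and 6 higher and 0 lower at P + T, and the cdk8 by T/NHS interaction gave 0. The median over all genes in cdk8 against Col-0 was then 0.26 at T and 0.20 at P + T. This scaling also reversed WEE1 (-0.17), CDKB1;1 (-0.25), KNOLLE (-0.27) and CYCB1;1 (-0.33) in T/NHS and AUR2 (-0.23), CYCA2;4 (-0.26) and CDKB1;1 (-0.31) in P + T/P. Over all 37 genes 9 changed sign in T/NHS, among them AUR2 (-0.36, adjusted p = 0.0184), and 10 in P + T/P. DESeq2 gave 5 genes called lower in T/NHS, 0 called lower in P + T/T and 1 higher in hsfa2 at P + T. It also gave 3 higher in cdk8 at NHS, 2 lower in cdk8 at T and 1 lower in cdk8 at P + T. Its size factors in edgeR gave 2 lower and 5 higher in cdk8 at T and 1 higher in cdk8 at P + T. Without a filter P + T/T had 0 lower, and cdk8 at P + T 1 lower and 1 higher. With a mean CPM of at least 1 P + T/P had 5 lower, P + T/T 0 lower and cdk8 at T 2 lower, and CYCA2;1 and CYCD4;2 were not tested. The replicate block gave 2 lower genes in cdk8 at T, and all 34 values compared of the genes described in full kept their direction and an adjusted p under 0.05. Fits of only the genotypes compared gave 0 lower in P + T/T, 1 higher in cdk8 at NHS, and 1 lower and 1 higher in cdk8 at P + T. Smaller changes of the counts under these alternatives are not all listed. Leaving out each library in turn, the genes called lower ran from 5 to 7 in T/NHS, 6 to 8 in P + T/P and 0 to 1 in P + T/T, those higher in hsfa2 at P + T from 0 to 1 and in cdk8 at NHS from 0 to 2, those lower and higher in cdk8 at T from 0 to 2 and 2 to 6 and at P + T from 0 to 2 and 1 to 3, and the cdk8 by T/NHS interaction from 0 to 2. The causes of these differences were not tested. Depth limits CYCD4;2 and CYCA2;1, with few read pairs in a library after HS, more than the other genes.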
